A study of Mus musculus with 8 samples.

Results

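Mag, Mbp, Mog, Mobp, Cnp, Cldn11, Ermn, Mal and Opalin are genes of oligodendrocytes, the glia that wrap axons in myelin, and they were measured here by RNA-seq in microglia isolated from mouse brain. The 9 genes were chosen by symbol from the 55421 genes of the read-count table, and all 9 were among the 22089 genes with enough counts to be tested. The mice were C57BL/6 and 6 months old, and there were 8 libraries in 4 groups of 2. The cKO/AD group carried a conditional knockout of Calhm2, a membrane channel gene of the calcium homeostasis modulator family, together with Alzheimer's disease. The WT/AD group had Alzheimer's disease with Calhm2 intact. The cKO group carried the Calhm2 knockout without Alzheimer's disease, and the WT group had neither. The labels name neither the disease model nor the Cre driver, and they do not state whether a group's 2 libraries are from different animals. The spread behind each p-value is that between libraries, and part of it may be technical. Levels are given as CPM, read counts scaled to library size with trimmed-mean (TMM) factors.

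Myelin is a spiral of oligodendrocyte membrane in which each turn is pressed against the next. Basic proteins such as Mbp hold the cytoplasmic faces together, and adhesion proteins such as Mag face the axon. Sox10, Olig1, Olig2 and Myrf are transcription factors of the oligodendrocyte lineage, and Myrf is needed for myelin genes to be switched on. Microglia are not known to make myelin, and the counts do not say which cells of the preparation the myelin transcripts came from.

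Each library held 18218165 to 25774587 counts in genes. Replicate 1 of cKO/AD stood apart, with 18693 genes detected and 4.73% of counts in mitochondrial genes, against 22088 to 25988 genes and 1.37% to 2.36% in the other 7 libraries. Levels also moved with the GC content of the transcript: the log2 deviation of a gene from its mean over the libraries changed by -1.08 and -0.47 per 10 percentage points of GC in the cKO/AD libraries. It changed by 0.68 and 0.51 in the WT/AD libraries, by -0.14 and 0.10 in the cKO libraries and by 0.17 and 0.23 in the WT libraries. Calhm2 had 2.5 and 1.56 CPM in the cKO/AD libraries, 16.4 and 13.7 CPM in the WT/AD libraries, 4.76 and 4.7 CPM in the cKO libraries and 10.3 and 12 CPM in the WT libraries, and it fell in cKO/AD against WT/AD by 2.89 in log2 units (SE 0.49, edgeR's adjusted p = 0.01). In cKO against WT its log2 difference was -1.24 (SE 0.47, adjusted p = 0.673), which did not pass the test, although all 4 knockout libraries lay below the other 4. All 18 microglia markers looked for (among them Cx3cr1, P2ry12 and Tmem119) had counts in each of the 8 libraries.

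The 9 myelin genes took 0.181% to 0.305% of all counts. Their summed level was 2076 and 2025 CPM in the cKO/AD libraries, 3081 and 2957 CPM in the WT/AD libraries, 2246 and 2510 CPM in the cKO libraries and 2249 and 2136 CPM in the WT libraries. The sum was highest in both WT/AD libraries and lowest in both cKO/AD libraries, an order that rested on Mbp. Without Mbp the other 8 genes summed to 1968 and 1663 CPM in the cKO/AD libraries, 1749.7 and 1779 CPM in the WT/AD libraries, 1571 and 1576 CPM in the cKO libraries and 1462 and 1332 CPM in the WT libraries. On that sum replicate 1 of cKO/AD was the highest of the 8, and both cKO/AD libraries lay above the cKO and WT libraries. In bulk RNA a different sum can come from a different number of oligodendrocyte-derived cells or from a different amount of RNA per cell, and the 2 cannot be told apart. The summed level of the microglia markers was 23080 to 30273 CPM in cKO/AD, 48738 to 52045 CPM in WT/AD, 31493 to 35619 CPM in cKO and 48775 to 51719 CPM in WT, and the part of the microglial share in the myelin levels was not tested.

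The myelin genes split between diseased mice with and without the Calhm2 deletion. In cKO/AD against WT/AD, Mbp, Mag, Opalin, Cnp and Cldn11 fell, between 2.18-fold and 5.34-fold, and Mal rose 2.50-fold. Mog, Mobp and Ermn did not pass the test. The test was edgeR's quasi-likelihood test fitted to all 8 libraries, with an adjusted p under 0.05 after Benjamini-Hochberg adjustment over the 22089 genes. It called 6 of the 9 genes, where it called 18% of all tested genes (7.82% higher and 10.2% lower). The median log2 fold change of the 9 genes was -1.12, beside -0.14 over all tested genes. The libraries of 3 genes (Mog, Ermn and Mal) were higher in cKO/AD without overlap, as for 24.3% of all tested genes, and those of the other 6 were lower, as for 35.1%.

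The basic proteins of the cytoplasmic side of myelin differed from each other. Mbp (myelin basic protein), which zips the cytoplasmic faces of the membrane together, had 107 and 362 CPM in the cKO/AD libraries, 1332 and 1178 CPM in the WT/AD libraries, 675 and 934 CPM in the cKO libraries and 786 and 804 CPM in the WT libraries. Both cKO/AD libraries lay below the other 6, but they lay far apart, and replicate 1 was the lower. Mbp averaged 235 ± 180.4 CPM in cKO/AD and 1255 ± 109 CPM in WT/AD (SD, n = 2 each), and it fell by 2.42 in log2 units (SE 0.50, edgeR's adjusted p = 0.0167), or 5.34-fold. Without replicate 1 of cKO/AD its log2 difference was -1.76, and without replicate 2 it was -3.56. Each of these fits held a single cKO/AD library, so the spread between the cKO/AD libraries did not enter it. Mobp (myelin-associated oligodendrocyte basic protein), a smaller basic protein of compact central myelin, had 196 and 226 CPM in the cKO/AD libraries, 256 and 245 CPM in the WT/AD libraries, 180.4 and 199 CPM in the cKO libraries and 152 and 157 CPM in the WT libraries. In cKO/AD both values were below the WT/AD ones and overlapped those of the cKO group. Its log2 difference between cKO/AD and WT/AD was -0.25 (SE 0.17, adjusted p = 0.35), which did not pass the test.

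The surface glycoproteins also parted. Mag (myelin-associated glycoprotein), the adhesion molecule of the innermost myelin turn that binds the axon, had 132 and 166 CPM in the cKO/AD libraries, 499 and 452 CPM in the WT/AD libraries, 292 and 347 CPM in the cKO libraries and 337 and 333 CPM in the WT libraries. Both cKO/AD values were the lowest of the 8 and both WT/AD values the highest. Mag averaged 149 ± 24.6 CPM in cKO/AD and 475 ± 33.3 CPM in WT/AD (SD, n = 2 each), and it fell by 1.67 in log2 units (SE 0.20, edgeR's adjusted p = 0.00641), or 3.19-fold. Mog (myelin oligodendrocyte glycoprotein), which sits on the outermost surface of the sheath, had 414 and 442 CPM in the cKO/AD libraries, 358 and 387 CPM in the WT/AD libraries, 373 and 349 CPM in the cKO libraries and 341 and 276 CPM in the WT libraries. Mog was highest in both cKO/AD libraries, which did not overlap any other group. The difference was small, 0.20 (SE 0.18, adjusted p = 0.473) on the log2 scale between cKO/AD and WT/AD, and did not pass the test.

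Of the pair that binds the cytoskeleton, Cnp fell and Ermn did not pass the test. Cnp (cyclic nucleotide phosphodiesterase), an enzyme of the cytoplasmic channels of the sheath that binds actin and tubulin, had 31.1 and 34.6 CPM in the cKO/AD libraries, 85.9 and 75.5 CPM in the WT/AD libraries, 54.9 and 64.6 CPM in the cKO libraries and 58.8 and 74.2 CPM in the WT libraries. The cKO/AD libraries lay below the other 6, and the other 3 groups lay close together. Cnp averaged 32.8 ± 2.49 CPM in cKO/AD and 80.7 ± 7.39 CPM in WT/AD (SD, n = 2 each), and it fell by 1.30 in log2 units (SE 0.22, edgeR's adjusted p = 0.0101), or 2.46-fold. Ermn (ermin), an actin-binding protein of mature oligodendrocytes, had 62 and 77.2 CPM in the cKO/AD libraries, 37.4 and 57.5 CPM in the WT/AD libraries, 60.8 and 53.4 CPM in the cKO libraries and 36.6 and 53.5 CPM in the WT libraries. Ermn was highest in both cKO/AD libraries, narrowly above the others. Its log2 difference between cKO/AD and WT/AD was 0.55 (SE 0.30, adjusted p = 0.228), which did not pass the test.

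The membrane proteins gave changes in both directions. Cldn11 (claudin 11), the tight-junction protein that seals the layers of central myelin, had 81.5 and 86.1 CPM in the cKO/AD libraries, 182 and 183 CPM in the WT/AD libraries, 116 and 173 CPM in the cKO libraries and 109 and 95.9 CPM in the WT libraries. No 2 groups overlapped, with cKO/AD the lowest and WT/AD the highest. Cldn11 averaged 83.8 ± 3.27 CPM in cKO/AD and 182 ± 0.202 CPM in WT/AD (SD, n = 2 each), and it fell by 1.12 in log2 units (SE 0.23, edgeR's adjusted p = 0.0154), or 2.18-fold. Opalin, a transmembrane glycoprotein of oligodendrocytes, had 6.76 and 10.3 CPM in the cKO/AD libraries, 23.9 and 21.3 CPM in the WT/AD libraries, 19.6 and 22.2 CPM in the cKO libraries and 24.4 and 17.4 CPM in the WT libraries. The cKO/AD libraries were the lowest 2 and the other 3 groups overlapped. Opalin averaged 8.55 ± 2.54 CPM in cKO/AD and 22.6 ± 1.83 CPM in WT/AD (SD, n = 2 each), and it fell by 1.40 in log2 units (SE 0.36, edgeR's adjusted p = 0.0326), or 2.64-fold. With a replicate block in the fit Opalin alone of the 6 lost its call, at -1.40 (adjusted p = 0.0503), and with the block and a GC offset together it was at -1.57 (adjusted p = 0.0612).

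Mal (myelin and lymphocyte protein), a small proteolipid of membrane rafts that works in sorting proteins to the sheath, went the other way. It had 1045 and 619.7 CPM in the cKO/AD libraries, 308 and 359 CPM in the WT/AD libraries, 474 and 368 CPM in the cKO libraries and 404 and 325 CPM in the WT libraries. The cKO/AD libraries lay above the other 6, replicate 1 much more so than replicate 2. Mal averaged 832 ± 301 CPM in cKO/AD and 333 ± 36.4 CPM in WT/AD (SD, n = 2 each), and it rose by 1.32 in log2 units (SE 0.28, edgeR's adjusted p = 0.0192), or 2.5-fold. Without replicate 1 of cKO/AD its log2 difference was 0.92, and without replicate 2 it was 1.64, each from a fit with a single cKO/AD library.

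**Figure D1:**
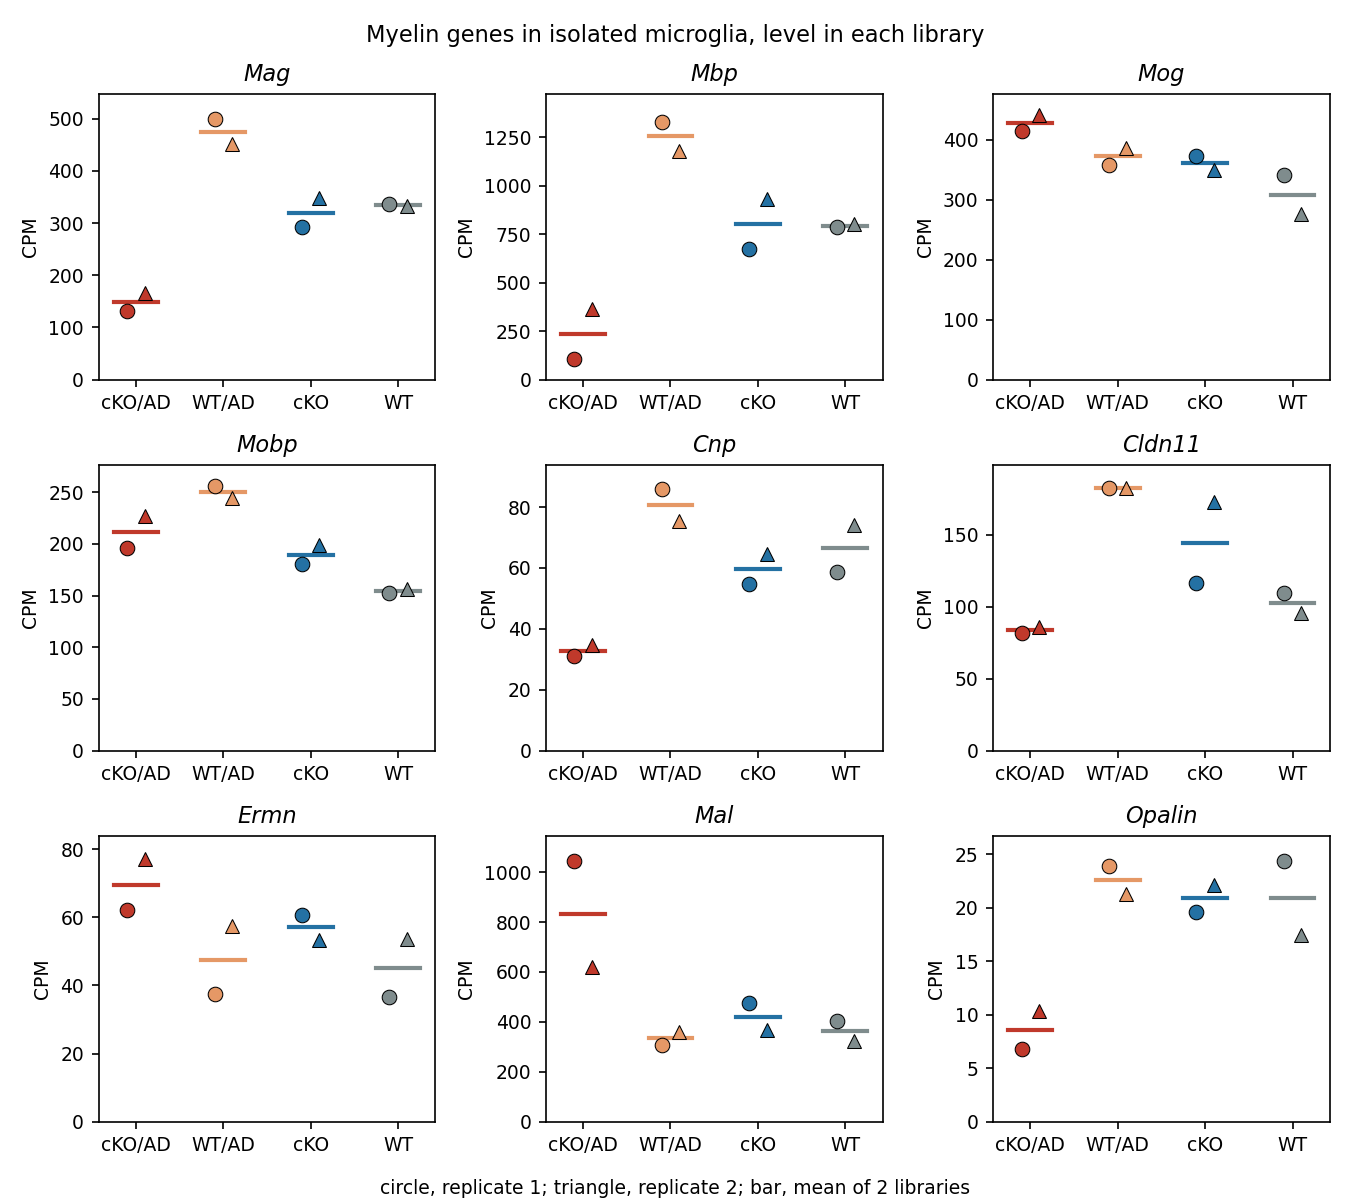
Level of each of the 9 myelin genes in the 8 libraries, in CPM on a linear axis that starts at 0, by group; circles are replicate 1, triangles replicate 2 and bars the mean of 2 libraries. Mag, Mbp, Cnp, Cldn11 and Opalin are lowest in both cKO/AD libraries, and Mal, Mog and Ermn are highest there.

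The 6 called genes kept their sign when either cKO/AD library was left out, replicate 1 being the library that stood apart. The median log2 difference of the 9 genes was then -1.06 without replicate 1 and -1.17 without replicate 2. Such a fit holds a single cKO/AD library, so it has no measure of the spread within that group. Leaving out a WT/AD library changed the calls. Without replicate 1 of WT/AD, 0 of the 9 genes were called (2 of all 24857 tested), and without replicate 2 Mag and Cnp were (1118 of all 24892 tested). The fit of the 4 libraries of cKO/AD and WT/AD alone called 0 of the 9 and 0 of all 19740 tested genes, with a log2 difference of -1.66 (adjusted p = 0.0901) for Mag and 1.33 (adjusted p = 0.117) for Mal.

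The GC content of the transcripts ran along with part of the split. The transcript of Mag held 57.6% GC and that of Cnp 55.8%, the highest 2 of the 9, while Ermn had the lowest share, 38%. Mobp had 53.3% and Mog 50%, and neither was called, while Cldn11, which fell, had 50.9%. Opalin, which fell, had less GC than Mal, which rose. A per-library GC offset removes any difference that goes with GC content, whatever its source. With it in the fit, the log2 difference between cKO/AD and WT/AD was -0.07 (adjusted p = 0.868) for Mag, -0.03 (adjusted p = 0.961) for Cnp and -0.82 (adjusted p = 0.0677) for Cldn11, so these 3 calls were lost. Mbp, at 51% GC, kept its fall with -2.17 (adjusted p = 0.0288). Opalin, at 47.6% GC, kept its fall with -1.58 (adjusted p = 0.0417), and Mal, at 48.9% GC, kept its rise with 1.36 (adjusted p = 0.0433). The values of Mobp, 0.49 (adjusted p = 0.12), and Ermn, -0.30 (adjusted p = 0.603), had the opposite sign with the offset and passed the test neither way. With the offset 3 of the 9 genes were called, where 6.05% of all tested genes were, and the median of the 9 genes was -0.07. Of the 3980 calls made over all tested genes without the offset, 981 held in the same direction with it. Of all calls in this comparison 43.4% were higher and 56.6% lower without the offset, against 63.0% higher and 37.0% lower with it. Over the 16 alternatives run, the adjusted p ranged between 6.51e-17 and 0.12 for Mbp, 8.38e-14 and 0.868 for Mag and 1.02e-05 and 0.961 for Cnp. It ranged between 0.000161 and 0.0978 for Cldn11, 0.00145 and 0.208 for Opalin and 3.80e-06 and 0.137 for Mal, while that of Mobp lay between 0.12 and 0.761 and that of Ermn between 0.0881 and 0.719.

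**Figure D2:**
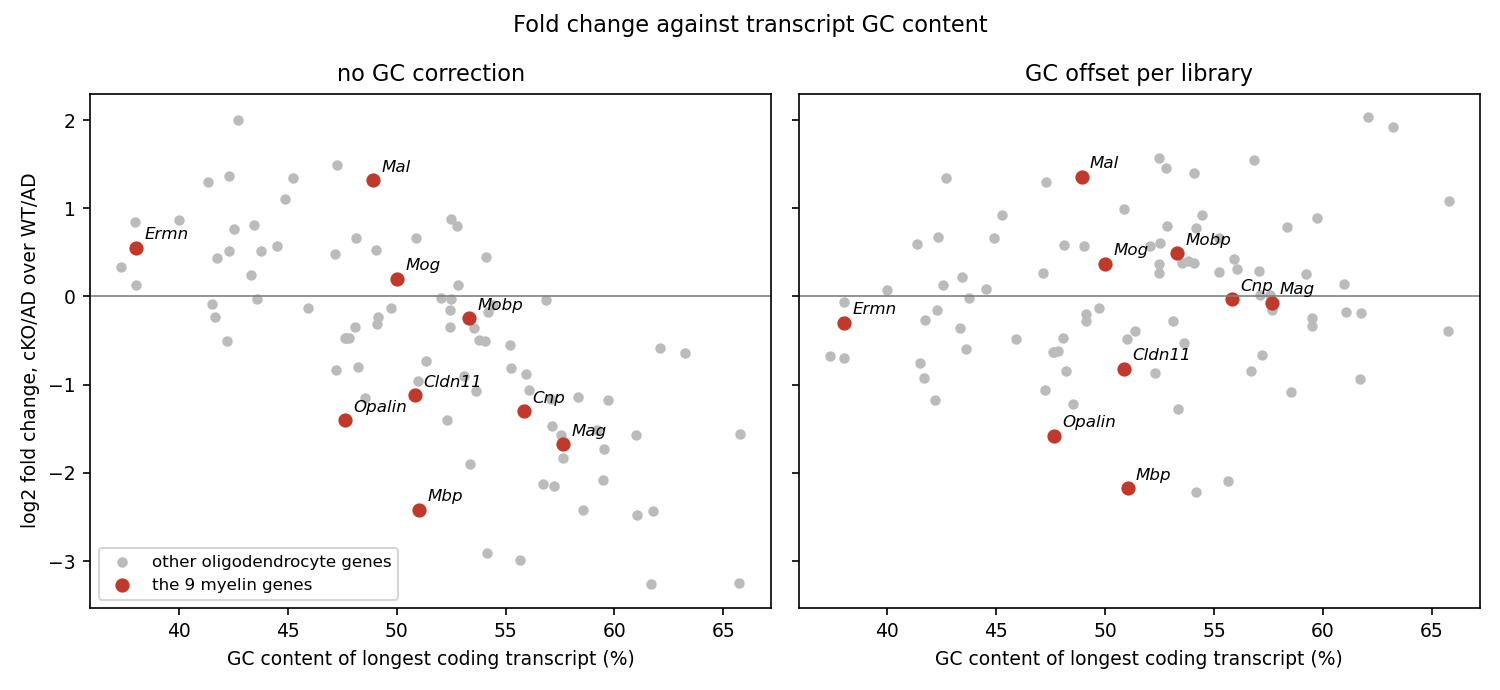
Log2 fold change in cKO/AD over WT/AD against the GC content (%) of the longest coding transcript, for the 9 myelin genes (red, named) and 82 other oligodendrocyte genes (grey), without (left) and with (right) a GC offset per library. Without the offset the values decline as GC content goes up; with it Mag and Cnp lie at -0.07 and -0.03, while Mbp, Opalin and Mal lie at -2.17, -1.58 and 1.36.

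Ratios of counts within a library show the same split on another scale. They pair genes that fell with the gene that rose or with genes that were not called, so they describe the levels already given and add no test. The ratio of Mag counts to Mal counts was 0.126 and 0.269 in the cKO/AD libraries, 1.62 and 1.26 in the WT/AD libraries, 0.616 and 0.943 in the cKO libraries and 0.834 and 1.03 in the WT libraries. The ratio of Mbp counts to Mal counts was 0.103 and 0.585 in the cKO/AD libraries, 4.33 and 3.28 in the WT/AD libraries, 1.43 and 2.54 in the cKO libraries and 1.95 and 2.48 in the WT libraries. For these ratios the cKO/AD libraries were the lowest 2 and the WT/AD libraries the highest 2. For Mag to Mog and for Cnp to Ermn the cKO/AD libraries were again the lowest 2, but replicate 2 of WT/AD, at 1.17 and 1.31, lay below replicate 2 of WT, at 1.21 and 1.39. With the GC offset the log2 differences between cKO/AD and WT/AD were -0.07 for Mag, -2.17 for Mbp and 1.36 for Mal.

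**Figure D3:**
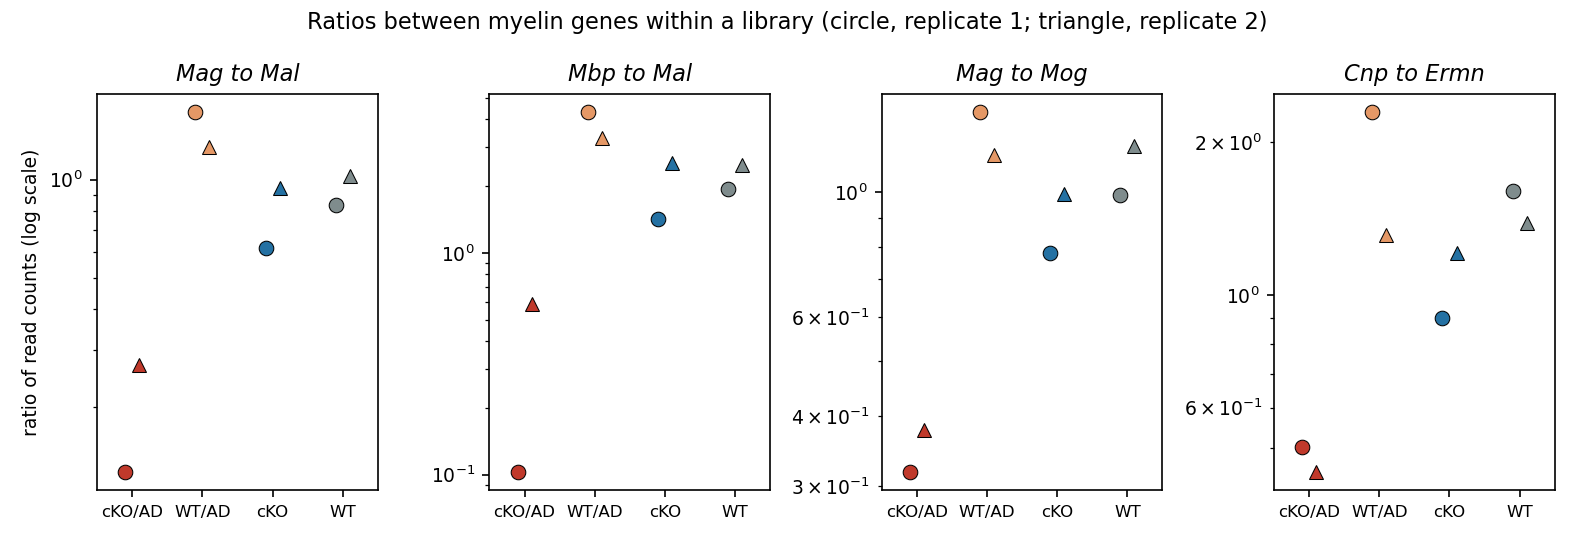
Ratio of the read counts of 2 myelin genes within each library, on a log axis, by group; circles are replicate 1 and triangles replicate 2. In each of the 4 panels both cKO/AD libraries lie below the other 6, and Mbp to Mal is 0.103 and 0.585 there.

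With Calhm2 intact, most of the 9 genes had higher mean levels in diseased mice than in WT mice, but none passed the test. In WT/AD against WT, 8 of the 9 log2 differences were positive, with a median of 0.28 beside 0 over all tested genes. The WT/AD libraries of 6 genes (Mag, Mbp, Mog, Mobp, Cnp and Cldn11) lay above both WT libraries, as those of 26.5% of all tested genes did. The largest difference was that of Cldn11, 0.83 (SE 0.22, adjusted p = 0.343), followed by Mobp, 0.70 (SE 0.17, adjusted p = 0.3), and Mbp, 0.66 (SE 0.48, adjusted p = 0.758). Mal differed by -0.13 (SE 0.28, adjusted p = 0.977) and its groups overlapped. edgeR called 0 of the 9 genes, where it called 0.0453% of all tested genes, although 3 of the 9 (Mag, Mobp and Cldn11) had an unadjusted p under 0.05, as 8.99% of all tested genes did. DESeq2 called 2, where it called 5.26% of its 10098 tested genes, Mobp with 0.71 (adjusted p = 0.00274) and Cldn11 with 0.84 (adjusted p = 0.0197). Leaving out replicate 1 or replicate 2 of cKO/AD, whose spread is pooled into the fit, brought Mbp, Mobp and Cldn11 past the threshold each time, with 1304 and 1202 of all tested genes called. Over the alternatives the adjusted p lay between 0.00274 and 1.0 for Mobp and between 0.0157 and 1.0 for Cldn11. In the same comparison the endothelial markers had a median log2 difference of -1.19 (1 of 16 positive), the astrocyte markers one of -0.38 (3 of 14 positive) and the microglia markers one of -0.03 (9 of 18 positive).

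Calhm2 deletion without Alzheimer's disease gave no call. In cKO against WT, 6 of the 9 log2 differences were positive, with a median of 0.21 beside -0.02 over all tested genes. The groups did not overlap for Mog, Mobp and Cldn11, each higher in cKO, as for 23.3% of all tested genes. The largest difference was that of Cldn11, 0.50 (SE 0.22, adjusted p = 0.694). Mag differed by -0.07 (SE 0.19, adjusted p = 0.997), Mbp by 0.02 (SE 0.47, adjusted p = 1.0) and Mal by 0.21 (SE 0.28, adjusted p = 0.969). edgeR called 0 of the 9 genes and 0% of all tested genes, 0 of the 9 had an unadjusted p under 0.05 (7.23% of all tested genes had one), and DESeq2 called 0. Markers of other cells differed here too, with a median log2 difference of -1.57 (0 of 16 positive) for the endothelial, -0.58 (1 of 14 positive) for the astrocyte and -0.46 (0 of 18 positive) for the microglia markers.

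With Calhm2 deleted, none of the 9 genes passed the test between mice with and without Alzheimer's disease. This comparison shares the cKO/AD libraries with the one above. In cKO/AD against cKO, Mbp differed by -1.78 (SE 0.49, adjusted p = 0.0883), Opalin by -1.29 (SE 0.36, adjusted p = 0.0897) and Mag by -1.10 (SE 0.20, adjusted p = 0.0556). Cnp differed by -0.86 (SE 0.22, adjusted p = 0.0795), Cldn11 by -0.79 (SE 0.22, adjusted p = 0.0951) and Mal by 0.98 (SE 0.28, adjusted p = 0.0962). The libraries of 5 genes were lower in cKO/AD without overlap, as for 31.1% of all tested genes, and those of Mog, Ermn and Mal were higher, as for 20.3%. edgeR called 0 of the 9 genes, where it called 0.217% of all tested genes. Those 6 genes had an unadjusted p under 0.05, as 23.4% of all tested genes did, and DESeq2 called the same 6 and 15.4% of its tested genes. Without replicate 1 of cKO/AD the median of the 9 genes was -0.75, and without replicate 2 it was -0.84, each from a fit with a single cKO/AD library. The GC offset left 0 of the 9 called, with a median of -0.08.

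The effect of Calhm2 deletion in diseased mice was set against that in mice without the disease by an interaction term, the first log2 difference minus the second. It was -2.43 (SE 0.68, adjusted p = 0.102) for Mbp, -1.62 (SE 0.32, adjusted p = 0.0599) for Cldn11 and -1.60 (SE 0.28, adjusted p = 0.0563) for Mag. It was -1.40 (SE 0.50, adjusted p = 0.161) for Opalin, -1.14 (SE 0.31, adjusted p = 0.0975) for Cnp and 1.11 (SE 0.40, adjusted p = 0.162) for Mal. edgeR called 0 of the 9 genes, where it called 0.0272% of all tested genes, so the effects of the deletion in the 2 settings were not shown to differ. These 6 genes had an unadjusted p under 0.05, as 21.9% of all tested genes did, and DESeq2 called 4 (Mag, Mbp, Cnp and Cldn11) and 13.5% of its tested genes. Without replicate 1 of cKO/AD the median term of the 9 genes was -1.08, and without replicate 2 it was -1.24, again with a single cKO/AD library. With the GC offset 0 were called, and the term was -0.20 (adjusted p = 0.772) for Mag and -2.29 (adjusted p = 0.137) for Mbp. Over the alternatives its adjusted p lay between 3.84e-06 and 0.772 for Mag and between 5.44e-09 and 0.336 for Mbp.

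**Figure D4:**
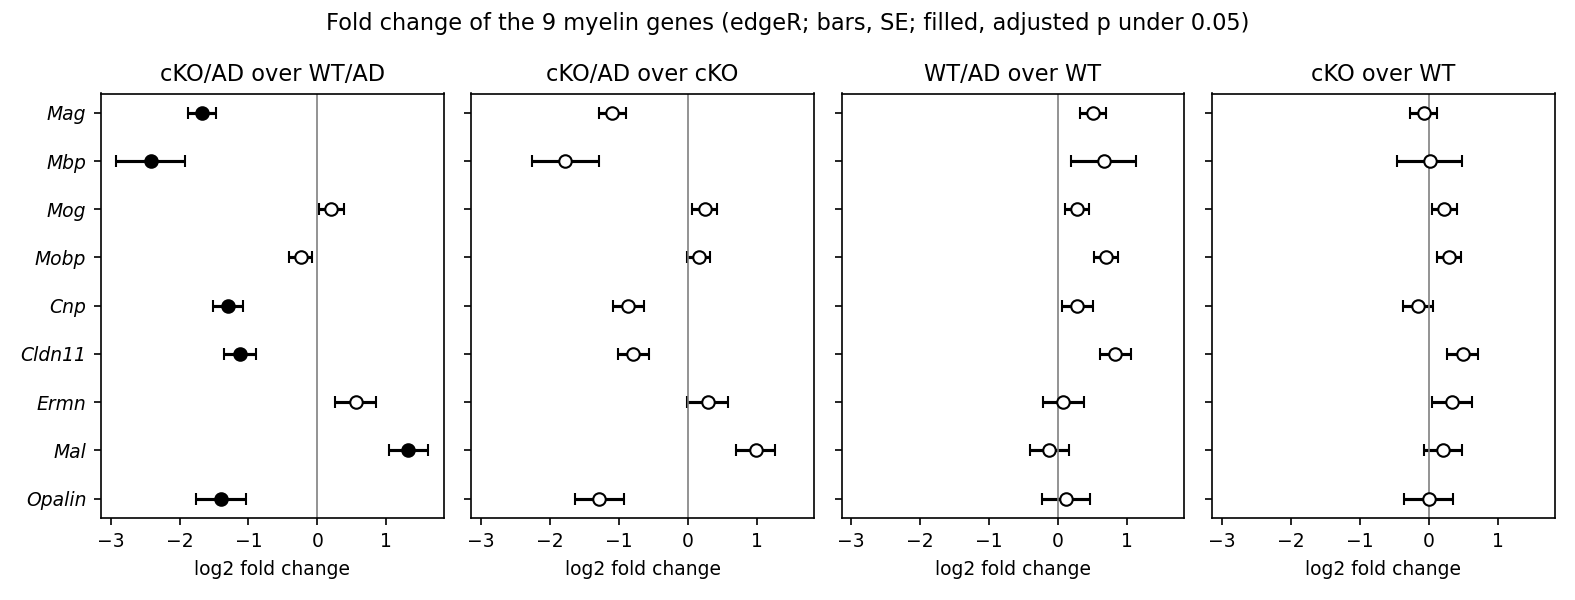
Log2 fold change of the 9 myelin genes in 4 comparisons from edgeR's fit of all 8 libraries, with bars of 1 SE; filled points have an adjusted p under 0.05. Filled points appear in cKO/AD over WT/AD alone, 5 below 0 and Mal above it at 1.32.

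Per kilobase of transcript, which allows genes to be ranked against each other, the order of the 9 genes differed between groups. Mal had the highest level in cKO/AD, 299.6 ± 108 CPM per kb, followed by Mog with 251 ± 11.3 CPM per kb (SD, n = 2 each). These 2 spreads overlap. Mbp had the highest level in WT/AD, 262 ± 22.6 CPM per kb, but only 49 ± 37.6 CPM per kb in cKO/AD. In WT, Mog had 181 ± 26.9 CPM per kb and Mbp 166 ± 2.66, which do not differ beyond their spread. Opalin had the lowest mean of the 9 in each group, with 4.65 ± 1.38 CPM per kb in cKO/AD and 12.3 ± 0.993 CPM per kb in WT/AD. In WT/AD and WT it did not differ from Ermn beyond the spread, with 13 ± 3.92 CPM per kb for Ermn in WT/AD, and in WT 12.4 ± 3.29 CPM per kb for Ermn and 11.4 ± 2.67 CPM per kb for Opalin.

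Across the 8 libraries Mag and Cnp had the most similar profiles among the 9, with a root mean square difference of 0.171 between their centred log2 levels. Mog and Mobp came next among the nearest partners, at 0.215, and Mag and Opalin at 0.221. Mbp and Mal were farthest apart, at 1.64. Cldn11 lay nearest to the mean profile of the 9, at 0.231, and Mbp farthest, at 0.847. The 5 genes outside the set nearest to that mean, of 12980 with a mean level of at least 5 CPM, were Atg16l2 at 0.0962, Rmc1 at 0.0975, Mat2a at 0.101, Disp2 at 0.101 and Ankrd11 at 0.104. Those 5 lay closer to the mean than any of the 9. Among the 22089 tested genes ordered by their distance from Mag, Cnp had rank 80, and among those ordered by their distance from Mal, Mog, the nearest of the 9, had rank 2968.

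Other oligodendrocyte genes split in the same comparison. Of 82 such genes, all tested, 7 rose and 15 fell in cKO/AD against WT/AD, beside 7.82% and 10.2% of all tested genes. Their median log2 difference was -0.42, and edgeR called 0 in each of the other 4 comparisons. Without replicate 1 of cKO/AD the median was -0.38. With the GC offset 3 rose and 1 fell, where 6.05% of all tested genes were called. At an unadjusted p under 0.05 there were 18 genes in WT/AD over WT, 5 in cKO over WT, 32 in cKO/AD over cKO and 28 in the interaction. The share of all tested genes under it was 8.99%, 7.23%, 23.4% and 21.9%, in that order. DESeq2 called 7 higher and 1 lower in WT/AD over WT, 1 higher in cKO over WT, 8 higher and 14 lower in cKO/AD over cKO, and 4 higher and 15 lower in the interaction. The share of its tested genes that DESeq2 called was 5.26%, 1.4%, 15.4% and 13.5%, in that order. In WT/AD over WT DESeq2 tested 10098 genes, which held only part of the 82. With replicate 1 of cKO/AD left out, the median log2 difference of the 82 genes was 0.21 in WT/AD over WT and 0.14 in cKO over WT. It was -0.35 in cKO/AD over cKO and -0.50 in the interaction. The lists were put together with earlier results of these data known, and they describe these libraries without testing the set.

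Of 21 other myelin proteins, 1 rose and 4 fell in cKO/AD against WT/AD, a share near the 18% called among all tested genes. Hapln2, a link protein of the matrix at nodes of Ranvier, fell by 2.08 in log2 units (SE 0.44, edgeR's adjusted p = 0.0185). Cntn2, an adhesion protein beside the node, fell by 0.87 in log2 units (SE 0.21, edgeR's adjusted p = 0.0251). Gjb1, a gap-junction connexin of the sheath, fell by 2.13 in log2 units (SE 0.51, edgeR's adjusted p = 0.0268). Gpm6b, a membrane glycoprotein of neurons and glia, rose by 0.87 in log2 units (SE 0.22, edgeR's adjusted p = 0.0311). With the GC offset 0 of the list rose and 1 fell, where 6.05% of all tested genes were called. The 1 that fell was Gpr37, a receptor named here for that call.

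Of 10 genes of myelin lipid synthesis, 2 rose and 0 fell, a share near the 18% called among all tested genes. Aspa, the enzyme that frees acetate from N-acetylaspartate for lipid synthesis, rose by 1.30 in log2 units (SE 0.24, edgeR's adjusted p = 0.0117). Enpp2, the secreted enzyme that makes lysophosphatidic acid, rose by 1.11 in log2 units (SE 0.25, edgeR's adjusted p = 0.0229). None of the 10 was called by edgeR with the GC offset.

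Of 11 oligodendrocyte transcription factors, 5 fell and 1 rose, where 18% of all tested genes were called. Olig1, a lineage factor, had 16 CPM on average in cKO/AD and 88.8 CPM in WT/AD and fell by 2.48 in log2 units (SE 0.29, edgeR's adjusted p = 0.00641). Nkx6-2, a homeobox factor of maturing oligodendrocytes, fell by 3.25 in log2 units (SE 0.44, edgeR's adjusted p = 0.00689). Sox10, which is needed for myelin gene expression, had 20.7 CPM in cKO/AD and 112 CPM in WT/AD and fell by 2.43 in log2 units (SE 0.39, edgeR's adjusted p = 0.00868). Myrf fell by 1.57 in log2 units (SE 0.28, edgeR's adjusted p = 0.0109), whereas Olig2, at a mean of 2.92 CPM in cKO/AD and 15.8 CPM in WT/AD, differed by -2.43 (SE 1.43, adjusted p = 0.27). Tcf7l2, the Wnt pathway factor of differentiating oligodendrocytes, rose by 1.49 in log2 units (SE 0.24, edgeR's adjusted p = 0.00919). These factors have GC-rich transcripts, with a list median of 56.8% GC. Tcf7l2 was the single factor called with the GC offset, with 1.29, where 6.05% of all tested genes were called. The value of Sox10 was then -0.19, which did not pass the test.

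Of 28 other genes of mature oligodendrocytes, 3 rose and 6 fell, where 18% of all tested genes were called. Tubb4a, a beta tubulin, fell by 2.15 in log2 units (SE 0.28, edgeR's adjusted p = 0.00673). Pls1, an actin-bundling plastin, rose by 2.00 in log2 units (SE 0.29, edgeR's adjusted p = 0.00722). Efnb3, an ephrin, fell by 1.83 in log2 units (SE 0.28, edgeR's adjusted p = 0.00765). Ppp1r14a, an inhibitor of myosin phosphatase, fell by 3.27 in log2 units (SE 0.51, edgeR's adjusted p = 0.00832). Once the GC offset was in the fit, 1 rose and 0 fell, where 6.05% of all tested genes were called. Of 12 genes of oligodendrocyte precursors and differentiating cells, edgeR without the offset and with all libraries called 0 in each of the 5 comparisons. In cKO/AD against WT/AD, 5 of the 12 had an unadjusted p under 0.05, as 33.7% of all tested genes did. DESeq2 called 2 higher and 3 lower there, and 30.1% of its tested genes. With the GC offset edgeR called 1 of the 12 higher there, beside the same 6.05% of all tested genes. The median log2 difference of the 12 was -0.11 with all libraries, 0.14 without replicate 1 of cKO/AD and -0.86 without replicate 2. Pdgfra, the growth factor receptor of precursors, differed by 0.66 (SE 0.51, adjusted p = 0.404) in cKO/AD against WT/AD.

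Over the 9 genes and the 82 together, the 8 that rose had a median GC content of 43.8% (38.0% to 48.9%) and the 20 that fell a median of 57.1% (47.6% to 65.7%). The 63 that passed the test neither way had a median of 51.4%. The call held with the GC offset for 3 of those that rose (Mal, Tcf7l2 and Pls1), and for 3 of those that fell (Mbp, Opalin and Gpr37).

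Markers of other cells moved in cKO/AD against WT/AD as well, where 7.82% of all tested genes were called higher and 10.2% lower. Of 18 microglia markers 9 fell in cKO/AD against WT/AD, among them Trem2, C1qc, Csf1r and Olfml3. Tmem119 fell by 1.60 in log2 units (SE 0.41, edgeR's adjusted p = 0.0334) and Cx3cr1 by 2.03 in log2 units (SE 0.52, edgeR's adjusted p = 0.0327), whereas P2ry12 differed by 0.48 (SE 0.21, adjusted p = 0.157). With the GC offset 3 of the 18 fell, where 6.05% of all tested genes were called. Of 15 neuronal markers 1 rose (Syt1) and 4 fell (Slc17a7, Syn1, Camk2a and Rbfox3), with summed levels of 8449 to 8791 CPM in cKO/AD and 9146 to 9216 CPM in WT/AD. Snap25 differed by 0.79 (SE 0.23, adjusted p = 0.0508) and Nefl by -0.23 (SE 0.25, adjusted p = 0.551). Of 14 astrocyte markers 1 fell (Clu), and of 16 endothelial markers 6 fell, among them Esam, Ly6c1, Cldn5 and Slc2a1. With the GC offset 4 endothelial markers and 1 astrocyte marker fell, and of the neuronal markers 1 rose and 1 fell. The endothelial markers summed to 625 to 671 CPM in cKO/AD, 1303 to 1309 CPM in WT/AD, 738 to 785 CPM in cKO and 2078 to 2087 CPM in WT, so they were highest in WT. The part of these cells in the myelin levels was not tested.

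The promoters are shown for 3 genes that fell, Mag, Cnp and Opalin, and for Mal, which rose. Not shown are Cldn11, which fell and held no match to the motifs below, and Ermn, which was not called and held none. Mobp and Mog, which held matches and were not called, are not shown either. Sox10 and Myrf act on myelin promoters and fell in the same comparison, but neither was called with the GC offset. Their part in the myelin levels was not tested. Each is the 250 bases before the start, written 5′ to 3′ on the strand of the gene, from RefSeq on GRCm38.p6. Capitals mark matches on either strand to ACAAAG, a core motif of SOX proteins, and to CTGGNAC, a motif of Myrf. Mag is at chr7:30914923-30915172 on the minus strand, the most upstream of its 3 listed starts, and Cnp is at chr11:100574689-100574938 on the plus strand. Opalin is at chr19:41077114-41077363 and Mal at chr2:127656696-127656945, both on the minus strand.
Mag: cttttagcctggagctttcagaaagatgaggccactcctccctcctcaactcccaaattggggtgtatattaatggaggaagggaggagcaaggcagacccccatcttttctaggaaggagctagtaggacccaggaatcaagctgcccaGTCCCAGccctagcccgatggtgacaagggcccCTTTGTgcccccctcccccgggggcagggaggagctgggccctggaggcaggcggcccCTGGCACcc
Cnp: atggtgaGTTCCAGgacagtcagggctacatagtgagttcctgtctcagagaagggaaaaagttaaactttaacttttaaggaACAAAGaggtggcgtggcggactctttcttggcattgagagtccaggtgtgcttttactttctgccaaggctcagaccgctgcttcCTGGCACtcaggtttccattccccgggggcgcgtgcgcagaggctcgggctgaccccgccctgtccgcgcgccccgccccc
Opalin: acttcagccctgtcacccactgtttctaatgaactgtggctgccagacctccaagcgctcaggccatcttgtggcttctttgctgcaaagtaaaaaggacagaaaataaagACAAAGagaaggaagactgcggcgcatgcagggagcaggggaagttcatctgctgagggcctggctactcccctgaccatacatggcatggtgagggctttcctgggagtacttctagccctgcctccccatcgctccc
Mal: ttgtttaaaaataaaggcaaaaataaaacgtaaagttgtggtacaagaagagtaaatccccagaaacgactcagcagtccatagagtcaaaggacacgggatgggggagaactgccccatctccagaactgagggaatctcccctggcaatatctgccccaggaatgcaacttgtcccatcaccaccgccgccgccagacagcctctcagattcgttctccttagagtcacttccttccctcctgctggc

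Of the 9 genes, 8 had a RefSeq promoter in the table used, and Mbp did not. The SOX motif occurred in 4 of the 8 (Mag, Mobp, Cnp and Opalin), and in 16.5% of 32851 mouse promoters of the same length. The Myrf motif occurred in 3 of the 8 (Mag, Mog and Cnp), and in 16.1% of those promoters. Among the genes that fell, Mag and Cnp held both motifs, Opalin the SOX motif alone and Cldn11 neither, and Mal held neither. Mobp had 6 matches to the SOX motif and passed the test in no comparison. A match is a run of letters and not a measured binding site.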

How the data were processed

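RNA-seq libraries were made from microglia isolated from mouse brain, 2 in each of 4 groups, with a TruSeq kit after Trizol extraction, per the labels' protocols. The authors deposited whole-number read counts per gene, which are not normalised. The genome build listed is mm9, per the submitters' processing notes. No aligner, counter or strand setting is given in the sources used here, so reads of overlapping antisense genes cannot be told apart. Each count column was tied to 1 sample by its name, and 0 columns were left without a sample. For replicate 2 of cKO/AD the column name matched only the start of the sample title, and no other title started with it.

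Counts were filtered (filterByExpr), scaled by TMM and tested with edgeR 4.0.16 (R 4.3.3) by the quasi-likelihood test, two-sided, in 1 model of the 4 groups, with Benjamini-Hochberg adjustment over 22089 genes and a threshold of 0.05. The standard error is the log2 fold change divided by the square root of the F statistic. CPM values use the TMM library sizes. GC content and length are those of the longest coding transcript in GENCODE M21, matched for 99.9% of the tested genes. The GC offset is fitted per library as a loess of the deviations on GC content, with span 0.4. DESeq2 1.42.0 was an alternative. The tests were also run on simulated counts, which had the same spread in each group, unlike these data.

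The 9 genes, the other lists and the tests were chosen with earlier results of these data known. Named genes are the 9, Calhm2, up to 4 called genes of each other list by adjusted p, 9 fixed markers, and the 5 genes nearest to the mean profile. An item of the lists is not reported here and is left out of their counts. The alternatives were other scaling, no low-count filter, DESeq2, the 2 groups alone, a replicate block, the GC offset and leaving out each library. Replicates of a group differed by far more than sampling noise. The chi-square divided by its degrees of freedom was 152 for cKO/AD, 26.5 for WT/AD, 33.3 for cKO and 18.7 for WT. The log2 differences between replicates had an SD over genes of 2.07 in cKO/AD and 1.03 to 1.17 in the other groups. For the 9 genes the median absolute difference was 0.32 in cKO/AD, 0.16 in WT/AD, 0.23 in cKO and 0.30 in WT. The fit of all libraries pools these unequal spreads. Libraries with the same replicate number did not deviate together (r of -0.12 to 0.22 between pairs of groups), so the numbers were not taken as pairs.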

Additional observations from a re-analysis of the deposited data

How the results depend on the processing

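The calls in cKO/AD against WT/AD depended on which libraries were in the fit and on the GC offset. The 9 genes gave 6 calls with DESeq2 size factors, library size alone, DESeq2 and no low-count filter. The share of all tested genes called in these fits was 18.3%, 16.5%, 30.1% and 16.2%, in that order. The 9 genes gave 5 calls with a replicate block (16.3% of all tested genes), which ended the call of Opalin. They gave 3 with the GC offset (6.05%) and 2 (Mbp and Mal) with the GC offset and a replicate block together (4.93%). The fit of the 2 groups compared alone gave 0 (0%). Leaving out 1 library left a lone library in that group, assumed to vary like those of the other groups. The calls without a WT/AD library are given above. The median log2 difference of the 9 genes in such fits was -1.17 to -1.06 in cKO/AD over WT/AD. It was 0.28 to 0.46 in WT/AD over WT and 0.06 to 0.26 in cKO over WT. In cKO/AD over cKO it was -0.98 to -0.47, and in the interaction -1.26 to -0.99. In WT/AD over WT, DESeq2 gave 2 calls (5.26% of its tested genes) and the fit of the 2 groups alone gave 4 (6.7%). In cKO/AD over cKO, DESeq2 gave 6 calls (15.4%) and the fit with no low-count filter 4 (8.79%). In the interaction DESeq2 and the fit with no low-count filter gave 4 each (13.5% and 7.68%). The cause was not tested. The count over all tested genes ranged over the alternatives between 1 and 1370 in WT/AD over WT, 0 and 678 in cKO over WT, 0 and 10192 in cKO/AD over WT/AD, 0 and 8570 in cKO/AD over cKO and 1 and 7884 in the interaction. Library size alone put the median of all genes at 0.13 in cKO over WT and at -0.35 in cKO/AD over cKO. It made 11.5% of the calls in cKO/AD over cKO higher and 88.5% lower, beside 29.2% and 70.8% with TMM, and 16.7% and 83.3% in the interaction, beside 33.3% and 66.7%. Samples with the same replicate number were not paired by the labels, and the block changed no other count of the 9 genes.

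The 6 called values kept their sign under each alternative run, which says little for Mag and Cnp, whose differences nearly vanished with the GC offset. The sign changed in 48 of the 711 alternative values of single genes, each time for a gene not called in that comparison. With the GC offset such values were -0.0121 for Cnp in WT/AD over WT and 0.13 for Mag and 0.0397 for Cnp in cKO over WT. Others were 0.49 for Mobp and -0.30 for Ermn in cKO/AD over WT/AD, -0.0827 for Ermn in cKO/AD over cKO and 0.0722 for Mog, 0.0443 for Mobp and -0.37 for Ermn in the interaction. With the GC offset and a replicate block together such values were -0.017 for Cnp in WT/AD over WT and 0.14 for Mag and 0.0364 for Cnp in cKO over WT. Others were 0.49 for Mobp and -0.31 for Ermn in cKO/AD over WT/AD, -0.13 for Ermn in cKO/AD over cKO and 0.0613 for Mog, 0.0402 for Mobp and -0.43 for Ermn in the interaction. With DESeq2 size factors they were 0.0178 for Opalin in cKO over WT and 0.00109 for Mog in the interaction. With library size alone such values were 0.0823 for Mag and 0.15 for Opalin in cKO over WT and -0.0668 for Mobp in cKO/AD over cKO. Another was -0.00318 for Ermn in the interaction. With DESeq2 they were 0.0178 for Opalin in cKO over WT and 0.00114 for Mog in the interaction. With no low-count filter it was 0.0296 for Opalin in cKO over WT. With the 2 groups compared alone it was 0.0446 for Opalin in cKO over WT. With a replicate block alone it was -0.0204 for Mbp in cKO over WT. Leaving out 1 library gave -0.27 to 0.38 for Ermn, -0.27 to 0.0408 for Mal and -0.10 to 0.38 for Opalin in WT/AD over WT. Leaving out 1 library gave -0.22 to 0.26 for Opalin, -0.31 to 0.027 for Cnp, -0.17 to 0.0514 for Mag and -0.21 to 0.23 for Mbp in cKO over WT. Leaving out 1 library gave -0.20 to 0.10 for Mog and -0.0973 to 0.55 for Ermn in the interaction.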
